A study of Mus musculus with 14 samples.

Results

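The proteasome is the protease complex that degrades most ubiquitin-tagged proteins in the cytosol and nucleus. Its subunit genes were followed here in mouse acute myeloid leukaemia cells. The genes were chosen by symbol (Psma, Psmb, Psmc, Psmd, Psme, Psmf or Psmg and a number) from those listed in both deposited expression tables. The inducible immunoproteasome subunits Psmb8, Psmb9 and Psmb10 were left out, which gave 44 genes of the 12655 in both tables. Psma8, a testis form of an alpha subunit, was listed only in the doxycycline table, at 0.130 to 0.969 CPM (a gene's reads per 1000000 reads of the library, after the authors' scaling) in doxycycline libraries and 0.186 to 1.26 CPM in untreated libraries, and was not called.

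A proteasome has a barrel-shaped core, the 20S particle, whose outer rings are made of alpha subunits (Psma) and whose inner rings are made of beta subunits (Psmb), some of which carry the proteolytic sites. The 19S regulator caps the core and turns it into the 26S proteasome. It has a ring of ATPases (Psmc) that unfold the substrate and further subunits (Psmd) that bind ubiquitin and remove it. Other caps (Psme) open the core without ATP, Psmf1 binds the core, and dedicated chaperones put the core (Psmg) and the base of the regulator (Psmd5, Psmd9, Psmd10) together without staying in the finished particle. When proteasomes are short of capacity, the transcription factor Nfe2l1 raises many of these genes together. Myeloma, another blood cancer, is treated with inhibitors of the Psmb5 site.

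The leukaemias were primary C57/BL6 tumours made in irradiated congenic hosts from foetal liver cells. These cells carried the MLL-AF9 fusion with a dsRED reporter on a Tet-Off retrovirus, and oncogenic NRASG12D together with the Tet-Off activator on another, so the cells of every library here carry both vectors. Cells were taken from the spleen. RNA-seq libraries came from leukaemia cells given doxycycline in culture for 4 days, which turns MLL-AF9 off (n = 4), against cells left untreated (n = 4). Other libraries came from cells 2 days after transduction with an Id2-GFP retrovirus (n = 3), against a control-GFP retrovirus (n = 3), in both cases viable cells sorted for GFP, with MLL-AF9 left on. The titles pair doxycycline with untreated libraries by a shared label (TRIMA2-M1B1, TRIMA2-M3B1, TRIMA2-M4B1 and TRIMA1-M4B1, here replicates 1 to 4), and Id2-GFP with control-GFP libraries by number.

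Each library of the doxycycline table held 17922644 to 25959766 reads on its listed genes, and those of the Id2 table held 14051150 to 14948487 reads each. The genes targeted by the labels were checked first. Mll1 (Kmt2a), a parent gene of the fusion, was at 114 to 144 CPM in doxycycline libraries and 1998 to 6369 CPM in untreated libraries, and Id2 was at 952 to 1630 CPM in Id2-GFP libraries and 25.8 to 51.5 CPM in control-GFP libraries. All 9 myeloid markers looked for were listed in both tables, whereas 0 of 6 erythroid markers, only Lck among T-cell, only Cd79b among B-cell, only Klrk1 among NK-cell and only Pecam1 among stromal and endothelial markers were listed in the doxycycline table. The Id2 table held the same single markers and, of the erythroid ones, Hba-a1 and Hbb-b1, summed at 0.697 to 2.22 CPM in Id2-GFP and 0.207 to 15.8 CPM in control-GFP libraries. Summed macrophage markers (Emr1, Cd68, Gpnmb, Trem2, Mrc1) stood at 4156 to 5258 CPM in doxycycline libraries and 471 to 731 CPM in untreated libraries, and all 5 rose. Pecam1 fell, at 63.9 to 90.1 CPM in doxycycline libraries and 248 to 254 CPM in untreated libraries (change −1.74), as did Lck. Of the 9 myeloid markers 4 rose, among them Csf1r by 2.06 on the log2 scale, and 4 fell, among them Kit by 3.72, Ctsg by 2.43 and Elane by 1.97. These shifts accompany every doxycycline value below, and their part in them was not tested. In bulk RNA, fewer cells of a type and less RNA per cell cannot be told apart.

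After 4 days of doxycycline the proteasome genes were mostly lower, by small amounts, with a few clear exceptions. Of the 44 genes, 25 fell and 5 rose at an adjusted p under 0.05 (limma over the whole table). Among all 13406 genes tested, 65.1% were called, 33.8% having fallen and 31.3% having risen, and the share of proteasome genes that fell was 56.8%. Every doxycycline value lay below every untreated value for 23 proteasome genes (31.1% of all genes) and above for 5 (28.9% of all genes). The median log2 change of the 44 genes was −0.15, and that of all genes was −0.03. As a share of the reads on tabled genes, proteasome genes took 0.434, 0.435, 0.433 and 0.410% in doxycycline libraries, against 0.567, 0.529, 0.558 and 0.545% in untreated libraries, without overlap. Their summed level after the authors' scaling was 4571 to 4805 CPM in doxycycline libraries and 4802 to 5210 CPM in untreated libraries, which just overlapped.

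**Figure D1:**
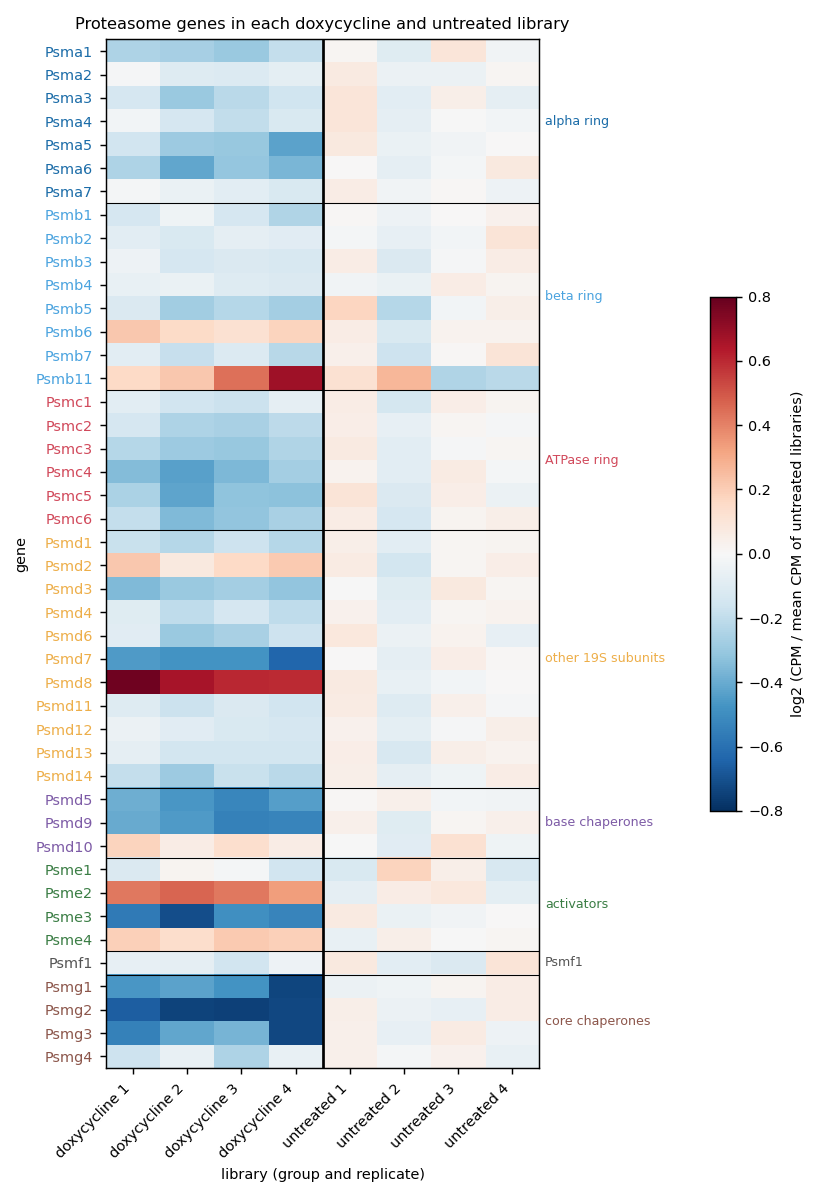
Level of each of the 44 genes (rows, grouped by role) in each doxycycline and untreated library (columns), as the log2 ratio of its CPM to the mean of the untreated libraries; blue is lower and red higher. Most rows are pale to mid blue in all 4 doxycycline columns, and Psmd7, Psme3 and Psmg1 to Psmg3 are the darkest blue. Psmd8 and Psme2 are red in these columns, and so is Psmb11 in doxycycline replicates 3 and 4, on 27 and 44 reads.

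The counts depended on how libraries were scaled. The authors' factors, 0.891 to 0.951 in doxycycline libraries and 1.068 to 1.101 in untreated libraries, set the middle of all genes close to equal. With plain library totals the median of all genes was −0.27, 2702 of 9614 calls over all genes were rises, against 4198 of 8733 with the authors' factors, and 37 proteasome genes fell and 2 rose, where 51.6% of all genes fell. With quantile normalization 35 proteasome genes fell, where 39% of all genes did, and with median-of-ratios scaling 21 fell, where 32.2% did. The proteasome median less that of all genes was −0.12 with the authors' factors, a difference that another factor per library leaves as it is, and −0.18 with quantile normalization. With the pair label as a block, 27 fell, Psma4 and Psmb7 being added, and 5 rose, against 36% of all genes that fell and 33.6% that rose. In that fit every call of the fit without the block was kept.

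Within each pair the same picture held. The median difference, doxycycline minus untreated, was −0.17 in TRIMA2-M1B1 with 36 of 44 genes lower, −0.09 in TRIMA2-M3B1 with 35 lower, −0.19 in TRIMA2-M4B1 with 37 lower and −0.19 in TRIMA1-M4B1 with 37 lower. The smaller median of TRIMA2-M3B1 went with its untreated library, which held the lowest untreated value for 32 of the 44 genes. Without that library 29 proteasome genes fell and their median was −0.19. The share of all genes that fell in that fit is not given here. Medians of all genes within the pairs ran from −0.04 to −0.01.

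Levels were also set per kilobase of exon, merging all exons of a gene's coding transcripts, a length that can exceed that of any single transcript. Comparison between genes is thus rough. In doxycycline libraries Psma2 and Psma7 had means of 134 and 155 CPM. With exon lengths of 2911 and 1180 bases they came to 46.1 and 132 CPM per kilobase. On that scale the median of each chaperone group and the level of Psmf1 were lower than the medians of the rings in both groups. The alpha ring had a median of 101 CPM per kilobase in doxycycline libraries and 110 in untreated libraries, and the beta ring one of 117 in doxycycline and 116 in untreated libraries. The ATPases had a median of 62.9 in doxycycline and 78.9 in untreated libraries, the other 19S subunits 59.8 in doxycycline and 68.0 in untreated libraries, and the activators 78.0 in doxycycline and 76.6 in untreated libraries. The core chaperones had a median of 17.5 in doxycycline and 25.0 in untreated libraries, and the base chaperones 11.5 in doxycycline and 15.7 in untreated libraries. Psmf1 was at 7.72 in doxycycline and 8.17 in untreated libraries. Psmb5, at 143 in doxycycline and 167 in untreated libraries, was the highest of the 44 genes in both groups.

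**Figure D2:**
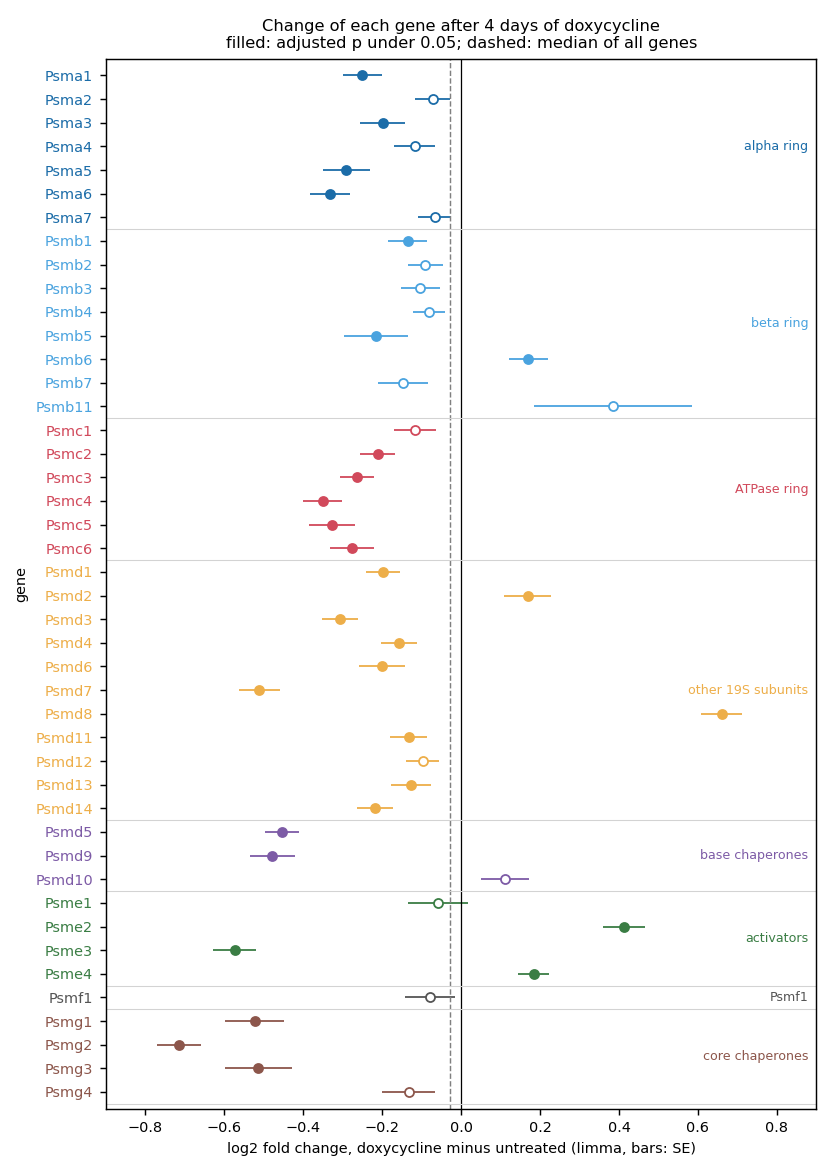
Log2 fold change of each gene, doxycycline minus untreated, with its standard error (bars), grouped by role from the alpha ring at the top to the core chaperones at the bottom; filled points passed the adjusted p of 0.05 and the dashed line is the median of all genes (−0.03). The changes run from −0.72 (Psmg2) to 0.66 (Psmd8), and most alpha, ATPase and other 19S points are filled and left of the line.

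Promoter stretches of 4 genes are shown because they span the responses: Psmb5, a catalytic subunit that fell, Psmb6, a catalytic subunit that rose, Psmd8, the largest rise, and Psme3, the largest fall among the activators. Each gives the 150 bases before the RefSeq start on GRCm38.p6, 5′ to 3′ on the gene's strand, with matches to the motifs searched in capitals. Psmb5 is chr14:54617996-54618145 on the minus strand, Psmb6 chr11:70525207-70525356 on the plus strand, Psmd8 chr7:29180674-29180823 on the minus strand and Psme3 chr11:101316063-101316212 on the plus strand.
Psmb5: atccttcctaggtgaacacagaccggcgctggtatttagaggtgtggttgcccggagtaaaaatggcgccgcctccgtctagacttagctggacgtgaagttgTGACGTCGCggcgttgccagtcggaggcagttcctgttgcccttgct
Psmb6: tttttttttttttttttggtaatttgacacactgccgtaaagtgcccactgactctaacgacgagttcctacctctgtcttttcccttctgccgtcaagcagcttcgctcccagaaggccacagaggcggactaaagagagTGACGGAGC
Psmd8: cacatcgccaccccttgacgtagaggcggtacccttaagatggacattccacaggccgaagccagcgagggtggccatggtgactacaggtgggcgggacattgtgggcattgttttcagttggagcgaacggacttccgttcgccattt
Psme3: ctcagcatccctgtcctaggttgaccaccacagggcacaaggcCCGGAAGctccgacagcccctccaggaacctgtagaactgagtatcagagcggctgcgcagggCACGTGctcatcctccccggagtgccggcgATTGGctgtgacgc

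The capitals mark an antioxidant response element (TGACNNNGC, the kind of site that Nfe2l1 and Nfe2l2 bind with small Maf proteins) in Psmb5 and Psmb6. In Psme3 they mark an ETS-type site (CCGGAAG), an E-box (CACGTG) and a CCAAT box read on the other strand. Over windows of 250 bases before to 50 after the start, both strands searched, the antioxidant response element was found in 6 of the 37 proteasome genes with a RefSeq promoter (16.2%). It was found in 17.3% of 8750 genes of both tables and 14% of all 27025 symbols with a promoter. Those 6 genes moved in no common direction: Psmb5, Psmc6 and Psmd9 fell, Psmb6 and Psme4 rose, and Psmd12 was not called. The ETS-type site was found in 14 of 37 (37.8%), against 21.3% of the genes of both tables, the E-box in 8.11% against 12%, and the CCAAT box in 35.1% against 43.7%. A match of letters is a description and no sign of binding.

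The alpha ring gates the entrance to the core. All 7 alpha genes had a negative change and 4 fell. Psma6 was at 130, 116, 125 and 120 CPM in doxycycline libraries, against 155, 147, 153 and 163 CPM in untreated libraries. Its change was −0.33 ± 0.05 (log2 change ± SE from limma here and below, n = 4 libraries a group; adjusted p = 0.000289), the largest of the ring. Psma1 was at 157, 155, 152 and 163 CPM in doxycycline libraries, against 189, 175, 200 and 183 CPM in untreated libraries, a change of −0.25 ± 0.05 (adjusted p = 0.00156). For both genes all 4 doxycycline values lay below all 4 untreated values. Psma5 fell by 0.29 and Psma3 by 0.20 on the log2 scale. Psma2, Psma4 and Psma7 changed by −0.07 to −0.12 and were not called, Psma4 with an adjusted p of 0.0731 that became 0.0321 with the block.

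The beta ring holds the proteolytic sites, and here the genes parted. Of 8 beta genes 2 fell (25%) and 1 rose (12.5%), where 33.8% of all genes fell and 31.3% rose. Psmb5, the chymotrypsin-like subunit, was at 139, 124, 129 and 125 CPM in doxycycline libraries, against 169, 129, 148 and 156 CPM in untreated libraries. The groups overlapped through untreated replicate 2, and the change was −0.22 ± 0.08 (adjusted p = 0.0386, and 0.00615 with the block). That call was lost in 11 of 21 alternatives, among them leaving out doxycycline replicate 2, 3 or 4 or untreated replicate 1, 3 or 4. Psmb6, the caspase-like subunit, was at 102, 97.7, 95.8 and 99.5 CPM in doxycycline libraries, against 91.6, 80.8, 89.5 and 89.7 CPM in untreated libraries. It rose by 0.17 ± 0.05 (adjusted p = 0.0124) with no overlap, but turned to −0.070 with library totals.

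Psmb7, the trypsin-like subunit, was at 122, 113, 120 and 111 CPM in doxycycline libraries, against 133, 115, 130 and 138 CPM in untreated libraries, lower within all 4 pairs. Its change of −0.15 ± 0.06 missed the threshold (adjusted p = 0.0618) and passed it with the block (0.039). Over all annotated transcripts, Psmb7 shares 405 exon bases with Nek6 on the opposite strand, and reads there cannot be told apart without strand. Psmb1, a structural beta subunit, was at 138, 148, 138 and 128 CPM in doxycycline libraries, against 152, 147, 152 and 155 CPM in untreated libraries. Its change was −0.14 ± 0.05 (adjusted p = 0.0328) with 1 doxycycline value inside the untreated range, and this call was also lost in 11 of 21 alternatives, among them leaving out doxycycline replicate 1, 3 or 4 or untreated replicate 1, 3 or 4. Psmb2, Psmb3 and Psmb4 changed by −0.08 to −0.10 and were not called, with 95% intervals reaching down to −0.22 and up to 0.01. Psmb11, the subunit known from thymic epithelium, was near the lower limit of the table, at 1.33 to 1.90 CPM in doxycycline and 1.01 to 1.43 CPM in untreated libraries, and was not called.

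The subunits that replace the catalytic ones in immune cells were listed apart. Psmb8, the counterpart of Psmb5, was at 170, 196, 158 and 152 CPM in doxycycline libraries, against 244, 299, 272 and 224 CPM in untreated libraries (change −0.62 ± 0.10, adjusted p = 0.000531). Psmb9, the counterpart of Psmb6, stood at a change of −0.26 (adjusted p = 0.0891, and 0.00506 with the block). Psmb10, the counterpart of Psmb7, changed by −0.08 ± 0.15 and was not called. Psmb8 was thus the only one of these 3 whose groups did not overlap.

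In the ATPase ring 5 of 6 genes fell, and all 5 were lower in every doxycycline library than in any untreated library. Psmc4 was at 92.6, 87.2, 91.8 and 97.7 CPM in doxycycline libraries, against 120, 111, 123 and 116 CPM in untreated libraries, 1.28-fold lower after doxycycline (change −0.35 ± 0.05, adjusted p = 0.00019). Psmc3 was at 142, 136, 135 and 141 CPM in doxycycline libraries, against 175, 158, 166 and 168 CPM in untreated libraries (change −0.26 ± 0.04, adjusted p = 0.000504). The groups stood clear of each other for both. Psmc3 shares exon bases with Slc39a13 on the opposite strand. Psmc5, Psmc6 and Psmc2 fell by 0.33, 0.28 and 0.21 on the log2 scale, and Psmc1 changed by −0.12 (adjusted p = 0.0804).

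The other 19S subunits held both the largest fall among 26S subunits and the largest rise of all. Of 11 genes 8 fell and 2 rose. Psmd7 (chr8:107580381-107588464 on GRCm38), the lid partner of the deubiquitinase Psmd14, was at 92.3, 90.7, 90.5 and 81.2 CPM in doxycycline libraries, against 127, 120, 131 and 127 CPM in untreated libraries. It was 1.43-fold lower after doxycycline (change −0.51 ± 0.05, adjusted p = 2.05e-05). Psmd8 (chr7:29174188-29180701), a lid subunit whose yeast counterpart joins the lid last, was at 299, 275, 265 and 264 CPM in doxycycline libraries, against 183, 168, 172 and 175 CPM in untreated libraries. It was 1.58-fold higher (change 0.66 ± 0.05, 95% interval 0.54 to 0.78, adjusted p = 4.44e-06), and its lowest doxycycline value was far above its highest untreated value.

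Psmd2, the large base subunit that docks shuttle proteins, was the most read gene of the family, at 383, 348, 368 and 382 CPM in doxycycline libraries, against 346, 298, 333 and 343 CPM in untreated libraries. It was higher in all 4 pairs (change 0.17 ± 0.06, adjusted p = 0.0308), but the call was lost without doxycycline replicate 1, 3 or 4 or untreated replicate 2 or 3, and the change was −0.072 with library totals. The remaining lid and base genes went the other way. Psmd3 fell by 0.31, Psmd14 by 0.22, and Psmd1, a scaffold of the base, and the lid subunit Psmd6 by 0.20 each on the log2 scale. Psmd4, a ubiquitin receptor, fell by 0.16, and Psmd11 and Psmd13 fell by 0.13 each, with overlapping groups and calls that were lost without doxycycline replicate 2 or 4 or untreated replicate 1, 3 or 4 (for Psmd13 also without doxycycline replicate 3). Psmd13 shares exon bases with Sirt3 on the opposite strand, and Psmd1 shares 301 exon bases with Gm21972 on the same strand. Psmd12 changed by −0.10 (adjusted p = 0.069).

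**Figure D3:**
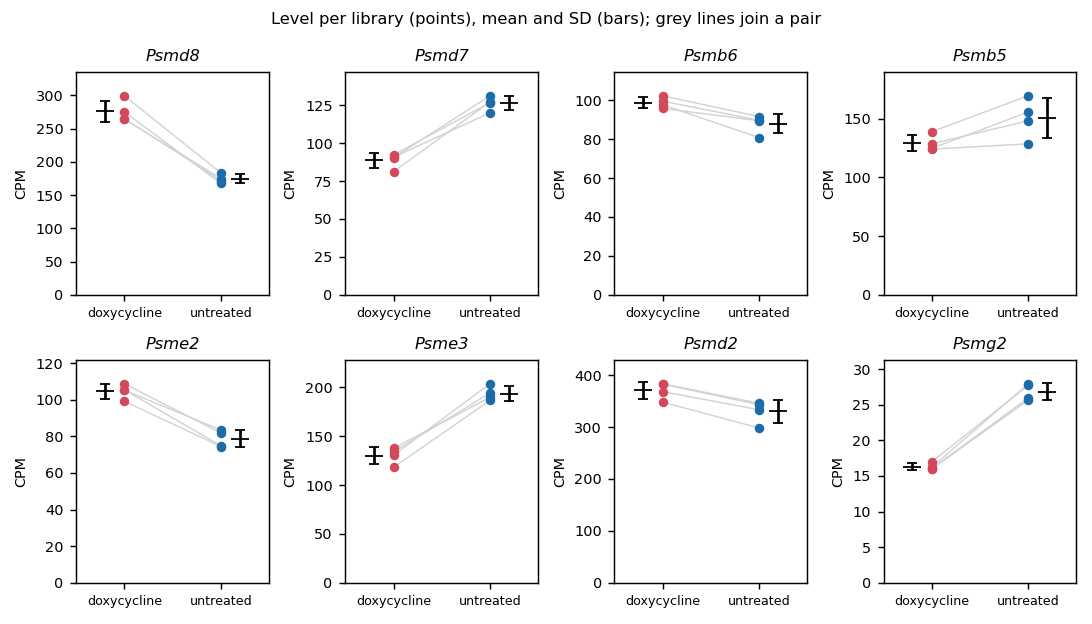
CPM of 8 genes in each doxycycline library (left, red) and untreated library (right, blue), with the mean and SD of each group (black bars) and grey lines joining the libraries of a pair; each axis starts at 0. Psmd8, Psmb6, Psme2 and Psmd2 are higher after doxycycline in all 4 pairs, and Psmd7, Psmb5, Psme3 and Psmg2 are lower in all 4.

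Assembly chaperones gave some of the largest falls. Psmg2, which pairs with Psmg1 to start the alpha ring, was at 17.0, 16.0, 16.0 and 16.2 CPM in doxycycline libraries, against 27.7, 25.9, 25.6 and 27.9 CPM in untreated libraries. This was 1.64-fold lower after doxycycline (change −0.72 ± 0.06, adjusted p = 3.89e-06). Psmg1 was at 21.4, 22.0, 21.2 and 17.8 CPM in doxycycline libraries, against 28.6, 28.8, 29.97 and 30.7 CPM in untreated libraries (change −0.52 ± 0.07, adjusted p = 0.000186). Both partners were thus lower in every doxycycline library. Of the other pair, Psmg3 fell by 0.51 on the log2 scale, at 11.7 to 14.9 CPM in doxycycline and 18.5 to 20.2 CPM in untreated libraries. It shares 280 exon bases with Gm26938 on the same strand. Psmg4 changed by −0.13 (adjusted p = 0.107).

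Of the base chaperones, which hold the ATPases during assembly, 2 of 3 fell. Psmd5 was at 52.9, 50.02, 48.1 and 50.9 CPM in doxycycline libraries, against 69.6, 71.1, 68.1 and 67.8 CPM in untreated libraries (change −0.45 ± 0.04, adjusted p = 1.4e-05). Psmd9 was at 24.1, 23.3, 21.9 and 22.1 CPM in doxycycline libraries, against 32.7, 29.8, 32.1 and 32.8 CPM in untreated libraries (change −0.48 ± 0.06, adjusted p = 5.86e-05). Neither gene's groups overlapped. Over all annotated transcripts, Psmd9 shares 1849 exon bases with Gm26745 on the opposite strand, a gene that was not listed in the doxycycline table. Psmd10, also known as gankyrin, was at 27.8 to 30.2 CPM in doxycycline and 25.1 to 29.1 CPM in untreated libraries and was not called (change 0.11, 95% interval −0.02 to 0.25).

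The activators split. Psme3 (chr11:101316213-101323537), the nuclear activator, was at 131, 118, 138 and 134 CPM in doxycycline libraries, against 204, 187, 190 and 194 CPM in untreated libraries, 1.49-fold lower after doxycycline (change −0.57 ± 0.06, adjusted p = 1.46e-05). Psme2 (chr14:55587441-55591113), which forms the interferon-inducible activator with Psme1, was at 105, 109, 105 and 99.2 CPM in doxycycline libraries, against 74.8, 81.9, 83.4 and 74.4 CPM in untreated libraries. It was 1.33-fold higher (change 0.41 ± 0.05, adjusted p = 9.38e-05). The opposite moves of Psme3 and Psme2 each left the groups far apart. A pseudogene, Psme2b-ps, is 99.37% identical to the Psme2 transcript over 794 bases and rose too, at 20.4 to 22.3 CPM in doxycycline and 14.4 to 14.8 CPM in untreated libraries, so the split of reads between them is uncertain.

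Psme1, the partner of Psme2, was at 114 to 129 CPM in doxycycline and 116 to 143 CPM in untreated libraries, and its change of −0.06 ± 0.08 was not called. Psme4, a large single-chain activator, rose by 0.18 ± 0.04 (adjusted p = 0.00237), at 105 to 110 CPM in doxycycline and 91.6 to 98.2 CPM in untreated libraries, but stood at −0.057 with library totals. Psmf1, which binds the core and inhibits it in the test tube, was at 31.1, 31.1, 29.3 and 31.7 CPM in doxycycline libraries, against 34.4, 30.8, 30.2 and 35.1 CPM in untreated libraries. The groups overlapped and Psmf1 was not called (change −0.08, 95% interval −0.22 to 0.06).

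Of these calls, 18 falls and 2 rises, those of Psmd8 and Psme2, were made under all 21 alternatives. The share of all genes called under every alternative is not given here, so these counts describe the proteasome genes alone. The rises of Psmb6, Psmd2 and Psme4 were lost with library totals and with quantile normalization. Falls outside the 18 were those of Psma3, Psmb1, Psmb5, Psmd4, Psmd6, Psmd11 and Psmd13.

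Around the subunits, 40 of 41 other genes of the pathway were measured, of which 10 rose and 13 fell, with a median change of −0.06. Among all 13406 genes 31.3% rose and 33.8% fell, and neither of these counts exceeded that share. The doxycycline counts of pathway genes that follow are to be read beside the same shares. Of 11 further subunits, docking proteins and assembly factors, 5 fell and 3 rose. AI314180, the gene of the proteasome adaptor Ecpas, was at 164, 172, 193 and 173 CPM in doxycycline libraries, against 280, 290, 281 and 256 CPM in untreated libraries (change −0.66 ± 0.06, adjusted p = 1.06e-05). Uchl5, a proteasome-bound deubiquitinase, was at 52.6, 41.2, 51.6 and 49.8 CPM in doxycycline libraries, against 78.4, 65.5, 74.7 and 72.6 CPM in untreated libraries (change −0.58 ± 0.09, adjusted p = 0.000248). Usp14, another such deubiquitinase, fell by 0.27, and the ubiquitin receptor Adrm1 by 0.26 on the log2 scale. Pomp, which matures the core, was at 103 to 118 CPM in doxycycline and 96.1 to 111 CPM in untreated libraries and was not called. Zfand2a, a stress-induced zinc finger protein that binds the proteasome, went the other way, at 112, 88.1, 93.5 and 99.2 CPM in doxycycline libraries, against 34.1, 32.4, 31.4 and 39.1 CPM in untreated libraries (change 1.52 ± 0.09, adjusted p = 9.41e-07). Zfand5 and Shfm1, the gene of the small lid subunit Sem1, also rose, by 0.29 and 0.20 on the log2 scale, and neither was called with library totals, where Shfm1 stood at −0.042.

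Of 10 regulators of the family or of its transcription factors, 4 rose and 2 fell. Nfe2l1 was at 233, 215, 230 and 208 CPM in doxycycline libraries, against 176, 154, 166 and 176 CPM in untreated libraries (change 0.40 ± 0.06, adjusted p = 0.000224). Nfe2l2, the oxidative stress factor that binds the same kind of site, was at 240, 213, 214 and 238 CPM in doxycycline libraries, against 105, 106, 97.4 and 110 CPM in untreated libraries (change 1.11 ± 0.06, adjusted p = 5.72e-07). For both factors the groups were far apart, and both rises were called under all 21 alternatives. Ddi2 and Ngly1, which process Nfe2l1 to its active form, rose by 0.29 and 0.32, and the small Maf gene Mafg by 0.35, while Keap1, the inhibitor of Nfe2l2, and Nfyb fell by 0.16 and 0.20 on the log2 scale. The rises of Ddi2, Ngly1 and Mafg were not called with library totals. The falls of Keap1 and Nfyb were called under 13 and 15 of the 21 alternatives, and the groups overlapped for both genes.

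Ubb, a polyubiquitin gene, stood at a change of 0.14 and was not called (adjusted p = 0.0722, and 0.0444 with the replicate block), and its change was −0.10 with library totals (adjusted p = 0.136). With quantile normalization its call was a fall, with a change of −0.39 (adjusted p = 0.00033). The ubiquitin gene Rps27a and the activating enzymes Uba1 and Uba6 were not called. Of the shuttle factors and the unfoldase genes, 2 of 10 rose, Sqstm1 by 0.65 and Ddi2, and 5 fell: Ubqln4 by 0.41, Rad23b by 0.24, Nploc4 by 0.21, the unfoldase Vcp by 0.19 and Ufd1l by 0.14. Ubqln1, another shuttle factor, stood at a change of 0.11 and was not called (adjusted p = 0.0660, and 0.0318 with the block).

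Id2, an inhibitor of basic helix-loop-helix transcription factors, rose after doxycycline itself, at 80.4 to 92.6 CPM in doxycycline and 21.4 to 33.5 CPM in untreated libraries (change 1.66 ± 0.13, adjusted p = 3.45e-06), and the other experiment raised it with a vector. With Id2-GFP no proteasome gene was called. Of the 44 genes 0 passed limma's adjusted threshold, 0 had an unadjusted p under 0.05, and 0 passed with the block or, in an alternative chosen after seeing the data, with voom weights. Of all 14563 genes tested there, 0.0137% were called, 2.45% had an unadjusted p under 0.05, and 0.24% were called with the block. Adjusted p-values of the 44 genes were all 0.998, and standard errors ran from 0.16 to 0.40. The 95% intervals all held 0, with lower ends from −1.17 to −0.29 and upper ends from 0.11 to 0.96. The groups overlapped for all 44 genes, where they did not for 6.95% of all genes.

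The point estimates leaned to one side, and 1 library weighed most in them. The change was negative for 42 of 44 genes, with a median of −0.20 where all genes had −0.03. Within pairs, Id2-GFP minus control-GFP, the median was 0.08 in pair 1 with 36 genes higher, −0.02 in pair 2 with 21 higher and 23 lower, and −0.72 in pair 3 with 42 lower. Leaving out control-GFP replicate 3 brought the median to −0.03, and leaving out replicate 3 of both groups brought it to 0.02. The summed level of the 44 genes was 5203, 4047 and 4316 CPM in Id2-GFP libraries, against 4900, 4115 and 6837 CPM in control-GFP libraries.

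**Figure D4:**
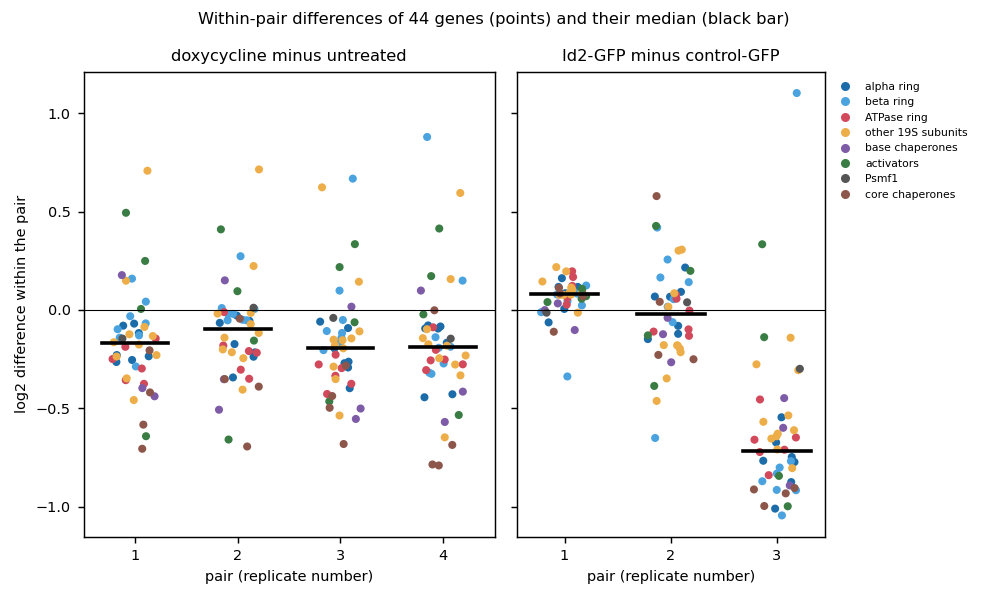
Log2 difference of each of the 44 genes within each pair, doxycycline minus untreated on the left and Id2-GFP minus control-GFP on the right, coloured by role, with the median as a black bar. All 4 doxycycline medians lie between −0.19 and −0.09, whereas the Id2 medians are 0.08, −0.02 and −0.72.

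The genes with the smallest p show the same pattern one by one. Psma6 was at 143, 105 and 123 CPM in Id2-GFP libraries, against 149, 116 and 247 CPM in control-GFP libraries (change −0.41 ± 0.29). Psmd9 was at 31.1, 27.8 and 22.9 CPM in Id2-GFP libraries, against 33.4, 30.3 and 42.5 CPM in control-GFP libraries (change −0.37 ± 0.21). Psmg2 was at 29.6, 21.9 and 25.5 CPM in Id2-GFP libraries, against 27.9, 25.7 and 48.6 CPM in control-GFP libraries (change −0.36 ± 0.28). Control-GFP replicate 3 was the highest library for each of them, and for Psmc4, at 115, 86.8 and 84.6 CPM in Id2-GFP libraries, against 113, 93.6 and 151 CPM in control-GFP libraries (change −0.31 ± 0.23). Of the genes that rose after doxycycline under every alternative, Psmd8 stood at 188 to 199 CPM in Id2-GFP libraries, against 153 to 288 CPM in control-GFP libraries. Psme2 stood at 85.7 to 104 CPM in Id2-GFP libraries, against 63.7 to 186 CPM in control-GFP libraries.

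Control-GFP replicate 3 held the highest value of its group for 39 of the 44 genes, and stood a median of 0.60 (log2) above the mean of control-GFP replicates 1 and 2, where all genes stood at 0.06. Its factor from the authors was 0.913, against 1.01 to 1.03 in the other 5 libraries. The excess was larger for genes of shorter exon length, which merges all exons of a gene and is not the length of a single transcript. Pearson's r with log2 exon length was −0.71 and Spearman's rho −0.69 over the 44 genes. Over 13356 genes of the table with a length they were −0.43 and −0.53. The 14 proteasome genes under 1200 bases of exon had a median excess of 0.94 and the 13 genes of at least 2500 bases one of 0.21. These points share 1 library and are a description. The same values over the 44 genes were r = 0.17 and rho = 0.06 for Id2-GFP replicate 3 set against Id2-GFP replicates 1 and 2, and r = 0.13 and rho = 0.06 for the change after doxycycline. The change with Id2-GFP went with length in the other direction, with r = 0.44 and rho = 0.38 over the 44 genes and r = 0.24 and rho = 0.35 over all genes with a length. Without replicate 3 of both groups its sign turned, to r = −0.50 and rho = −0.44 over the 44 genes and r = −0.14 and rho = −0.22 over all genes with a length. In that setting the median change was 0.08 for the 14 shorter genes and −0.05 for the 13 longer ones.

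**Figure D5:**
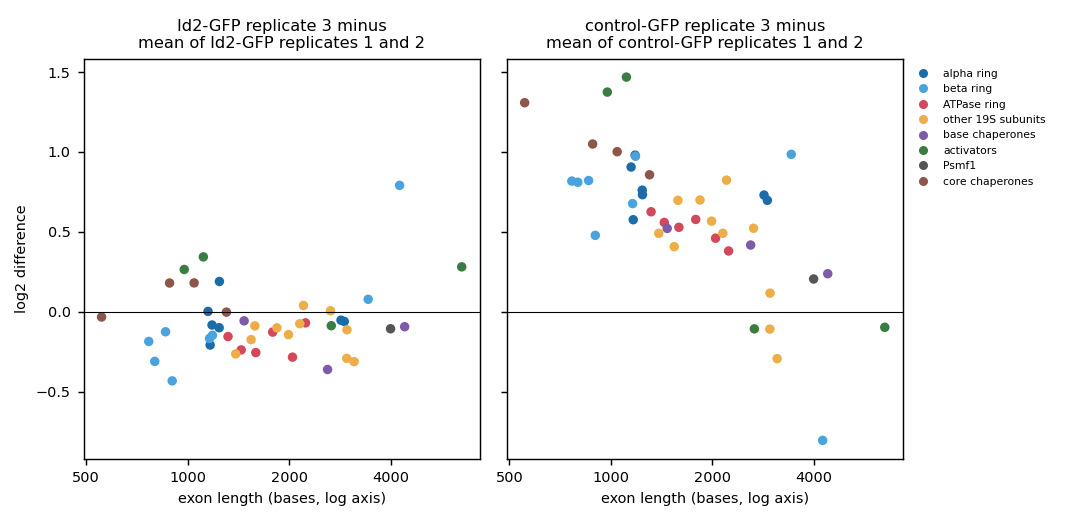
Log2 difference between replicate 3 and the mean of replicates 1 and 2 against exon length (bases, log axis) for each of the 44 genes, in Id2-GFP libraries on the left and control-GFP libraries on the right, coloured by role. On the left the points run from −0.43 for Psmb5 to 0.79 for Psmb11; on the right the shorter genes tend to lie higher, up to 1.47 for Psme1, and the longer ones spread widely, with Psmb1 at 0.99 and Psmb11 at −0.80.

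Of the other genes of the pathway 0 of 40 were called with Id2-GFP, with or without the block. Their median change was −0.10. The ubiquitin gene Rps27a stood at 464 to 655 CPM in Id2-GFP libraries and 366 to 1208 CPM in control-GFP libraries, the highest being control-GFP replicate 3. Nfe2l1, at 124 to 170 CPM in Id2-GFP and 116 to 151 CPM in control-GFP libraries, and Nfe2l2, at 107 to 141 CPM in Id2-GFP and 87.0 to 114 CPM in control-GFP libraries, did not pass the test.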

How the data were processed

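Per the labels' protocols, total RNA was taken with Trizol and made into TruSeq V2 libraries. TopHat2, HTSeq, limma, CASAVA 1.8.2 and the build mm10 are named in the submitters' processing notes, with no roles given; strand is not given in the sources used here. The authors deposited 2 tables, normalized apart, of log2 CPM values. From the values, each is the log2 of reads plus 0.5 over a scaled library size: 100% came out as whole reads within 0.01 read. Genes not above 1 CPM in 2 or more libraries were absent. The doxycycline table held 13419 entries, 13 of them repeats.

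Tests ran within a table, by limma 3.58.1 in R 4.3.3 on the deposited log2 values (eBayes with trend, two-sided, Benjamini-Hochberg over all genes of the table, called at an adjusted p under 0.05). The same fit was run on simulated data with noise independent between libraries, which does not cover pairing or shifts of a whole library. Fold changes are on that log2 scale, whose offset understates changes of low genes. Positions and exon lengths are from GENCODE M21 (GRCm38), and promoters from RefSeq. Psme2b-ps was compared with Psme2 by blastn 2.17.0. Nothing says that replicates came from separate animals, so p-values measure the spread between libraries, which may be technical in part.

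The titles' shared labels and numbers pair the libraries: deviations from the group means correlated at 0.454 to 0.552 between doxycycline and untreated partners and at 0.472 to 0.581 between Id2-GFP and control-GFP partners. The block with these pairs was an alternative, beside other scalings, offsets, weights and left-out libraries.

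Genes and lists were chosen with earlier results of these data known. Named in full are the 2 genes of each role with the smallest doxycycline p, those that moved against their role (at most 3), the catalytic subunits, the 4 with the smallest Id2 p, and, of the other pathway genes, the 4 with the smallest doxycycline p plus Nfe2l1, Nfe2l2, Pomp, Adrm1, Usp14 and Uchl5; further pathway genes are given by their change alone or chosen after their values were seen. Some genes of the pathway lists enter the counts and are not reported by name here.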

Additional observations from a re-analysis of the deposited data

Results flagged for a closer look

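Among 88 sets of 4 libraries (each of the 44 genes in doxycycline and in untreated libraries), 5 had a library far from the other 3, by the gap to its neighbour as a share of the set's range, beyond Dixon's 95% limit for 4 values. Chance flags about 1 set in 20. In doxycycline libraries these were Psmd7, low in replicate 4 (share 0.847), Psmg1, low in replicate 4 (0.836), and Psmd13, high in replicate 1 (0.980). In untreated libraries they were Psmd4, low in replicate 2 (0.854), and Psmd13, low in replicate 2 (0.854). Untreated replicate 2 was also the lowest untreated library for most proteasome genes.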

How the results depend on the processing

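With library totals 2 genes rose, the median change after doxycycline was −0.39, and Psmb6 and Psmd2 turned to −0.070 and −0.072. With quantile normalization 2 rose and the median was −0.28, where all genes had −0.10. Falls numbered 37 with library totals, where 51.6% of all genes fell, 35 with quantile normalization (39%) and 21 with median-of-ratios scaling (32.2%). Leaving out 1 library or 1 pair gave 18 to 29 falls, 4 or 5 rises and medians of −0.19 to −0.14. The 18 falls came without TRIMA2-M4B1, and the shares of all genes in these fits are not given here. With the replicate block 27 fell, Psma4 and Psmb7 being added, and 5 rose; it changed no other call among the proteasome genes. With Id2-GFP, called genes of the whole table numbered 2, against 1 with a mean log2 over 3, 35 with the replicate block, and 0 to 3 when a library or pair was left out; proteasome genes called were 0 throughout, and their median ran from −0.38 to 0.02 when a library or pair was left out and was −0.01 with array weights. Except for scaling the causes were not tested. Standard errors of proteasome genes were 0.04 to 0.20 in the doxycycline comparison and 0.16 to 0.40 in the Id2 comparison, whose tables differ in depth and in the number of libraries.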
